A study of Mus musculus with 24 samples.

Results

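Sox17-RACVECs and Akt-RACVECs are both endothelial-like cells converted from mouse amniotic cells, and the comparison here set the one directly against the other by RNA sequencing. The 6 libraries, 3 of each, were taken by their labels from the 24 libraries of the series. All 6 cultures began as amniotic cells (MACs) of C57BL/6J embryos of both sexes, collected at mid-gestation, that were transduced with lentiviruses for the Ets transcription factors Etv2, Erg and Fli1 and grown in endothelial medium with an inhibitor of Tgf-beta signalling; such converted cells are called RACVECs. Akt-RACVECs further carried a lentivirus with the PGK promoter for myristoylated Akt, a constitutively active form of the kinase. Sox17-RACVECs instead carried a lentivirus for Sox17 and had been selected with puromycin, so that the transgene, its vector and the selection differ between the groups and cannot be told apart. A replicate is a culture from a separate isolation of amniotic cells. The study asked with these cells whether enforced Sox17 could take the place of constitutive Akt.

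Etv2, Erg and Fli1 bind DNA through the Ets domain and switch on many endothelial genes; Etv2 acts early in the embryo, whereas Erg and Fli1 remain on in mature endothelium. Akt is a serine/threonine kinase that relays signals from growth factor receptors to survival, metabolism and cell growth, and the myristoyl group holds it at the membrane. Sox17 belongs to the SoxF group of transcription factors with Sox7 and Sox18, binds DNA through an HMG box and is known for its part in arterial endothelium.

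Values are FPKM, fragments scaled to transcript length and, by upper-quartile normalization, to the library, summed over the RefSeq transcripts of a gene. Of 22282 genes, 13019 had a mean FPKM of at least 1 over the 6 libraries and were tested. The summed FPKM of a library was between 1689486 and 1999424, and between 12356 and 13852 genes were above 0. Numbers of reads are not known, and an FPKM of 0 can be an absent transcript or a failed estimate. Fold changes are differences of mean log2(FPKM + 1), Sox17-RACVECs less Akt-RACVECs, ± standard error, and calls needed a limma p below 0.05 after adjustment together with a difference of over 1 on the log2 scale in either direction.

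The transduced genes were examined first, as a check of the labels. Sox17, on mm9 chr1:4481009-4486494, had an FPKM of 12.01, 83.5 and 82.2 in Akt-RACVECs 1 to 3 and of 5.09, 40.1 and 200.1 in the libraries labelled Sox17-RACVEC 1 to 3. Only the third Sox17 library lay above the Akt-RACVECs, the first lay below all of them, and the groups overlapped (log2 fold change -0.29 ± 1.11, limma adjusted p = 0.958). In RACVECs with neither transgene, Sox17 was listed at 0 in all 3 libraries. These values do not separate the groups as their labels do, and whether an endogenous or a vector transcript was counted was not tested.

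Etv2 marked 1 library off from the rest. It was at 127.4, 572.1 and 289.3 in Akt-RACVECs and at 458.4 and 377.6 in Sox17-RACVEC 1 and 3, but it was listed at 0 in the library labelled Sox17-RACVEC 2, although every culture of both groups is labelled as transduced with it. Erg divided the libraries in another way. It was at 395.2, 1002 and 417.7 in Akt-RACVECs and at 387.3 in the library labelled Sox17-RACVEC 2, and at 4.49 and 0 in Sox17-RACVEC 1 and 3, which is as low as the 0.90 to 13.8 of RACVECs. Fli1, at 267.8 to 351.8 in Akt-RACVECs and 272.3 to 434.0 in Sox17-RACVECs, and Akt1, at 872.0 to 1280.5 and 884.2 to 1322.7, overlapped between the groups.

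Across the 14697 genes above 0 in any of the 6 libraries, the library labelled Sox17-RACVEC 2 also lay apart from its group. Its profile had a Pearson correlation of 0.968 with Akt-RACVEC 3, 0.926 with Akt-RACVEC 1 and 0.8775 with Akt-RACVEC 2, against 0.864 and 0.862 with Sox17-RACVEC 1 and 3. Sox17-RACVEC 1 and 3 correlated with each other at 0.968. With the mean of the RACVECs they correlated at 0.947 and 0.941, and the library labelled Sox17-RACVEC 2 at 0.861. The non-coding RNA Xist, which is made from the inactive X chromosome, was at 26.9, 0.85 and 0 in Akt-RACVECs, at 97.3 and 234.5 in Sox17-RACVEC 1 and 3, and at 0 in the library labelled Sox17-RACVEC 2. The Y-linked genes Ddx3y, Uty, Eif2s3y and Kdm5d were listed at 0 in all 6 libraries, although the study describes its embryos as of both sexes. The tests below are therefore given with and without the library labelled Sox17-RACVEC 2, and its value stands beside those of the genes described; without it, the Sox17 group holds 2 libraries.

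**Figure D1:**
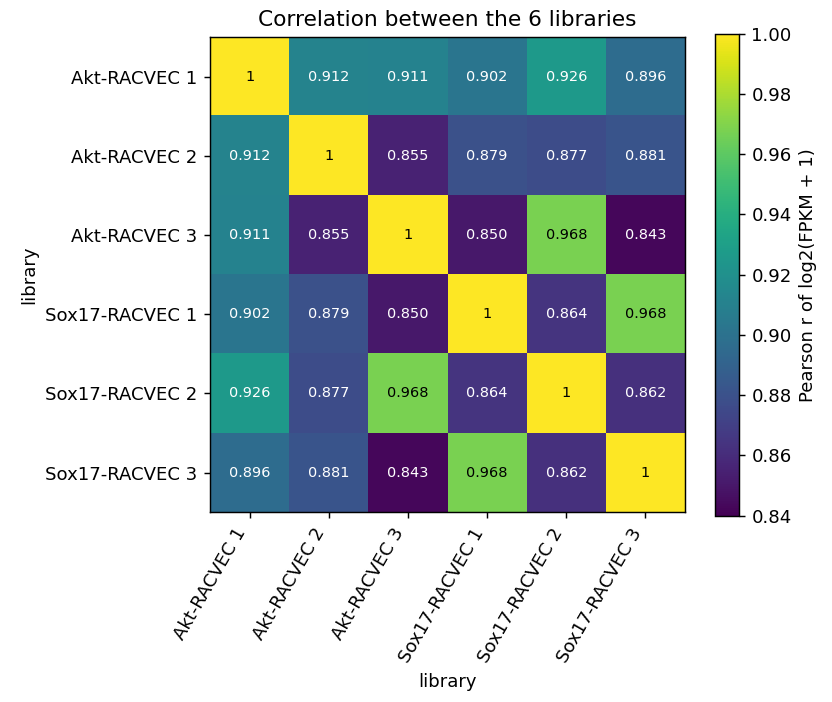
Pearson correlation of log2(FPKM + 1) for each pair of the 6 libraries, over 14697 genes; rows and columns are libraries. The 2 closest pairs, both at 0.968, are Sox17-RACVEC 1 with 3 and the library labelled Sox17-RACVEC 2 with Akt-RACVEC 3.

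Endothelial markers gave the same division, and markers of other cell types did so in part. The summed FPKM of 8 endothelial markers (Cdh5, Pecam1, Kdr, Tek, Tie1, Emcn, Esam and Cldn5) was 11442, 19224 and 13009 in Akt-RACVECs, 4045 and 4247 in Sox17-RACVEC 1 and 3, and 14856 in the library labelled Sox17-RACVEC 2. All 8 markers were lower in Sox17-RACVEC 1 and 3 than in any Akt-RACVEC, where 19.4% of all genes were. In all 3 Sox17 libraries 2 of 8 were so, where 6.30% of all genes were. These were Kdr and Cldn5. For Cldn5 the margin was narrow, 2.33 in the library labelled Sox17-RACVEC 2 against 2.40 in Akt-RACVEC 3. Akt-RACVECs and Sox17-RACVECs both lay above the 1500 to 2718 of RACVECs. The sum of 6 mesenchymal markers (Pdgfra, Pdgfrb, Col1a1, Col1a2, Thy1 and Twist1) was 193.9, 158.9 and 0.31 in Akt-RACVECs, 358.2 and 316.5 in Sox17-RACVEC 1 and 3, and 4.93 in the library labelled Sox17-RACVEC 2. Of these, 3 of 6 were above every Akt-RACVEC in Sox17-RACVEC 1 and 3, where 18.4% of all genes were. Thy1, at 60.7, 31.3 and 0 against 3.99 and 39.5, was not. The 4 smooth muscle markers were Acta2, Tagln, Cnn1 and Myh11. They summed to 282.8, 8.95 and 5.81 against 921.2 and 2049, with 7.12 in the library labelled Sox17-RACVEC 2. Of these, 2 of 4 were above every Akt-RACVEC in Sox17-RACVEC 1 and 3, where 18.4% of all genes were. Acta2 and Tagln made up nearly all of the sums, while Cnn1 stayed below 5 and Myh11 below 1 in each of the 6 libraries. A bulk library cannot tell fewer cells of a type from less RNA per cell. The 5 epithelial markers summed to at most 128.8, with Krt19 in the lead. The 4 macrophage markers measured summed to at most 14.9, with Ptprc at 0.34 or less, but in the longer macrophage list Lyz2, which encodes lysozyme, was at 134.2, 49.7 and 3.81 in Akt-RACVECs and at 916.5, 98.1 and 25.8 in the Sox17 libraries, and Cd14, a receptor for bacterial lipopolysaccharide, at 145.2 in Akt-RACVEC 1. The part of such cells in the results was not tested. The 3 red cell markers measured summed to at most 1.06.

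With all 6 libraries, the groups were hardly further apart than the libraries within them. The mean distance, as 1 less the Pearson correlation, was 0.109 between libraries of different groups and 0.105 within groups, which differ by 0.004 (p = 0.8, exact permutation over libraries, two-sided; 3 against 3 libraries cannot give a p below 0.1). Without the library labelled Sox17-RACVEC 2 the difference was 0.036, with 0.125 between groups and 0.089 within them. The same exact permutation gave p = 0.1, and this design allows none smaller. That library was set aside after its values were seen, and it lay near Akt-RACVEC 3. Leaving out such a library by itself widens the difference. The limma fit over all 6 called 0 genes higher and 0 genes lower of 13019 (0%). At an unadjusted p below 0.05 and the same fold, 190 genes were higher and 432 lower, and the smallest adjusted p, shared by Gpihbp1 and Pcdhga10, was 0.0554. Without the library labelled Sox17-RACVEC 2, limma called 145 genes higher (1.11%) and 260 lower (2.00%). These calls, too, rest on a choice of libraries made from the same data.

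The omitted library did not enter those calls, and at most of the called genes it lay nearer to the Akt-RACVECs. Of the 145 genes called higher, it lay nearer to the mean of the Akt-RACVECs than to that of Sox17-RACVEC 1 and 3 at 140 (96.6%), and of the 260 called lower at 248 (95.4%). Its median log2 difference from the Akt-RACVECs was -0.25 at the genes called higher and 0.00 at those called lower, where Sox17-RACVEC 1 and 3 lay 2.42 above and 2.63 below. It lay within the range of the Akt-RACVECs at 100 of 145 and 140 of 260 genes. It lay past that range on the same side as the other Sox17 libraries at 15 and 69 genes, and past it on the opposite side at 30 and 51. The genes were chosen for values far from the Akt-RACVECs in Sox17-RACVEC 1 and 3, so nearness to one mean or the other is a description only.

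**Figure D2:**
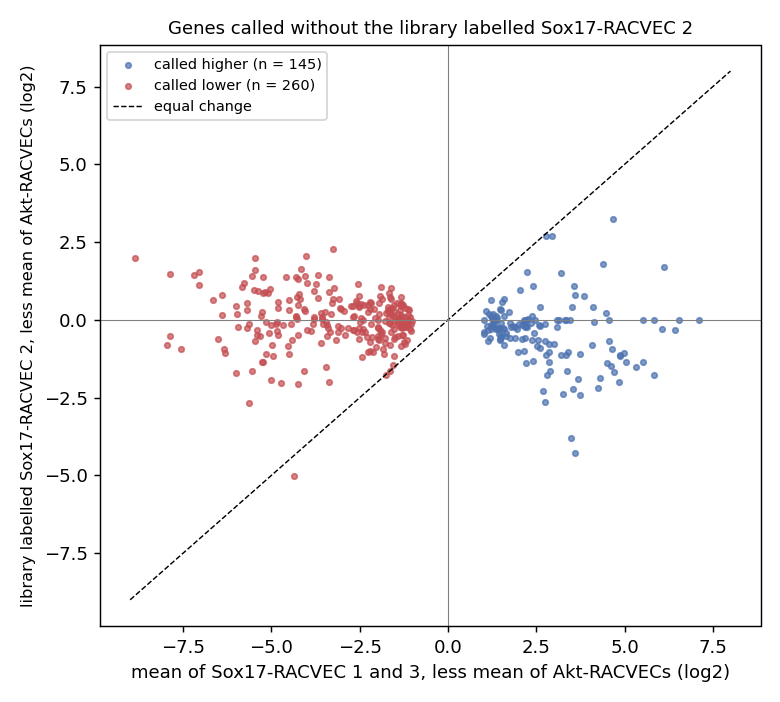
Each point is a gene called without the library labelled Sox17-RACVEC 2 (145 higher in blue, 260 lower in red). The x axis is the mean log2(FPKM + 1) of Sox17-RACVEC 1 and 3 less that of the Akt-RACVECs, whose choice of genes sets its gap around 0, and the y axis the same difference for the omitted library; most points lie near the horizontal zero line and far from the dashed line of equal change.

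Some genes of the endothelial receptor and surface list were called lower in Sox17-RACVEC 1 and 3, Tek, Nos3, Calcrl, Ramp2 and Gpihbp1. Of 29 receptor and surface genes tested, 24 had a negative fold change without the library labelled Sox17-RACVEC 2, with a median of -1.56 where that of all 13019 genes was -0.02, and 5 were called lower and 0 higher, where 2.00% and 1.11% of all genes were. Of the 29, 17 lay below every Akt-RACVEC, where 19.4% of all genes did, and Eng, Acvrl1, Robo4 and Adgrl4 were among the 5 with a positive fold change. With it, 25 of 29 were negative, the median was -1.03 against -0.05 for all genes, and 0 were called. Tek, the angiopoietin receptor Tie2 on mm9 chr4:94405980-94541667, was at 207.6, 240.2 and 415.7 in Akt-RACVECs and at 3.67 and 5.17 in Sox17-RACVEC 1 and 3, with no overlap. The library labelled Sox17-RACVEC 2 was at 231.5, inside the range of the Akt-RACVECs. Without it the log2 fold change was -5.68 ± 0.64 (limma adjusted p = 0.000142), and with it -3.87 ± 1.01 (adjusted p = 0.370). RACVECs had between 12.5 and 27.9.

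Nos3, the endothelial nitric oxide synthase on mm9 chr5:23870628-23890292, was at 898.2, 62.3 and 444.0 in Akt-RACVECs and at 0 and 0.58 in Sox17-RACVEC 1 and 3. It was at 819.2 in the library labelled Sox17-RACVEC 2, and without that library the log2 fold change was -7.87 ± 1.05 (limma adjusted p = 0.000691), and with it -4.75 ± 1.71 (adjusted p = 0.459). In RACVECs Nos3 was at 2.46 or less. Calcrl and Ramp2, which together form the receptor of adrenomedullin, were both called lower. Calcrl was at 758.1, 215.0 and 3112 against 59.5 and 17.0, and Ramp2 at 2281, 1536 and 4427 against 218.9 and 189.1, and the library labelled Sox17-RACVEC 2, at 2055 and 2933, lay among the Akt-RACVECs for both (limma adjusted p = 0.0222 and 0.0304 without it, and 0.567 and 0.506 with it).

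Gpihbp1, which carries lipoprotein lipase across capillary endothelium, was lower in all 3 Sox17 libraries. On mm9 chr15:75427088-75428642, it was at 76.6, 248.1 and 50.2 in Akt-RACVECs and at 3.08, 14.6 and 0 in the 3 libraries labelled Sox17-RACVEC. No library of either group overlapped the other. The log2 fold change was -4.64 ± 0.76 with all 6 libraries (limma adjusted p = 0.0554) and -5.62 ± 0.70 without the library labelled Sox17-RACVEC 2 (adjusted p = 0.000305). RACVECs had 2.56 to 15.8, so that the Sox17 libraries lay at about their level.

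Further receptor and surface genes did not pass, among them ones with large differences. Mcam, an adhesion molecule, was at 486.2, 928.8 and 382.0 against 16.1 and 32.3, with 401.3 in the library labelled Sox17-RACVEC 2, and Plvap, of endothelial diaphragms, at 1449, 548.4 and 1311 against 148.7 and 55.8, with 409.3 (limma adjusted p = 0.101 and 0.085 without it, and 0.532 and 0.459 with it). Kdr, the main receptor for Vegfa, was at 1034, 1016 and 1198 in Akt-RACVECs and at 365.9, 883.1 and 374.0 in the Sox17 libraries, without overlap, yet did not pass (log2 fold change -1.13 ± 0.62, limma adjusted p = 0.608, and -1.54 ± 0.68, adjusted p = 0.210, without the library labelled Sox17-RACVEC 2). In RACVECs Kdr was between 97.1 and 206.4, below all 6 libraries. Pecam1, the adhesion molecule CD31, was at 3649, 6524 and 4132 against 586.5, 5144 and 714.1. It was below all Akt-RACVECs only in Sox17-RACVEC 1 and 3 (limma adjusted p = 0.102 without the library labelled Sox17-RACVEC 2 and 0.586 with it), and these 2 lay above the 15.3 to 155.3 of RACVECs. Cdh5, or VE-cadherin, had similar levels, 2413, 3887 and 2008 against 1788, 3217 and 1937 (log2 fold change -0.25 ± 0.48, limma adjusted p = 0.904, and -0.52 ± 0.54, adjusted p = 0.638, without the library labelled Sox17-RACVEC 2).

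**Figure D3:**
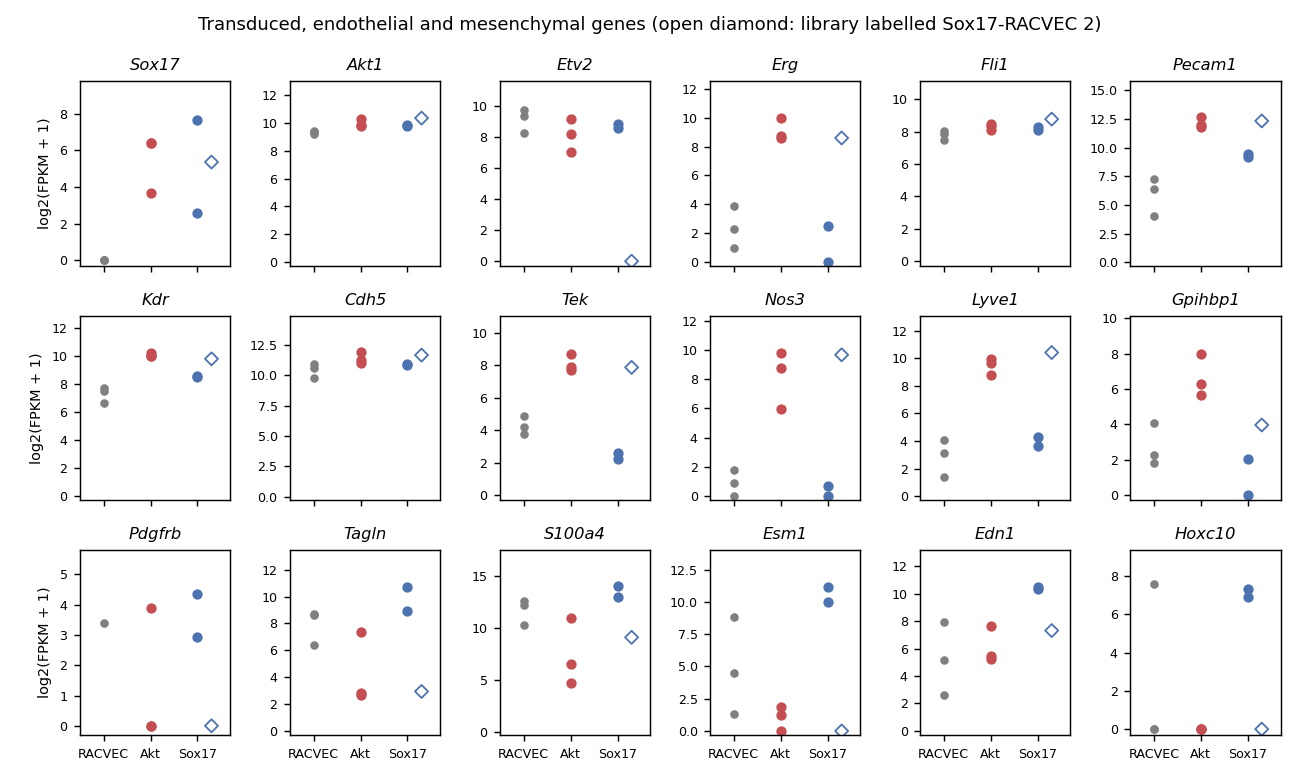
FPKM of 18 genes in each library, as log2(FPKM + 1) on the y axis, with RACVECs in grey, Akt-RACVECs in red and Sox17-RACVECs in blue; the open diamond is the library labelled Sox17-RACVEC 2. The diamond lies with the red points for Erg, Pecam1, Tek, Nos3, Lyve1, Tagln, Esm1 and Hoxc10, and at 0 for Etv2.

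Among 24 endothelial transcription factors tested, 17 had a negative fold change without the library labelled Sox17-RACVEC 2 (median -0.95), and 3 were called lower, where 2.00% of all genes were, beside the transduced Erg. With all 6 libraries 19 of 24 were negative (median -0.42) and 0 were called. Erg, on mm9 chr16:95580776-95808200 and described above, had a log2 fold change of -7.87 ± 0.74 (limma adjusted p = 4.25e-05), and of -5.42 ± 1.31 with all 6 libraries (adjusted p = 0.291). The groups did not overlap for Erg even with all 6, by a narrow margin, 387.3 in the library labelled Sox17-RACVEC 2 against 395.2 in the lowest Akt-RACVEC. Mef2c, a MADS-box factor in vascular development and a target of Ets factors, was at 123.5, 124.2 and 77.9 against 7.57 and 13.2, with 155.9 in the library labelled Sox17-RACVEC 2 (log2 fold change without it -3.28 ± 0.57, limma adjusted p = 0.00499; with it -2.002 ± 0.77, adjusted p = 0.477). Lyl1, a basic helix-loop-helix factor close to Tal1, was at 107.4, 62.1 and 124.1 against 10.3 and 0, and Ets2 at 714.7, 881.2 and 476.8 against 168.6 and 56.9. Both were back in the Akt-RACVEC range or above it in the library labelled Sox17-RACVEC 2, at 122.2 and 920.3 (limma adjusted p = 0.021 and 0.0304 without it, and 0.486 and 0.530 with it). Tal1 itself, an early blood and endothelial factor, did not pass, at 67.1, 68.3 and 75.8 against 81.4, 86.0 and 23.5. The other SoxF genes did not pass either: Sox18 was at 736.5, 1701 and 675.5 against 1893, 796.0 and 1405, and Sox7 at 448.3, 322.4 and 226.1 against 309.1, 437.6 and 224.0, so that both overlapped.

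Upstream sequences of a pair of the genes called lower show whether ACAAT, core letters that Sox factors can bind, occurs there. They are the 250 bases before the first listed RefSeq start on GRCm38.p6, read 5′ to 3′ on the strand of the gene, with ACAAT or its reverse complement ATTGT in capitals; Tek is at chr4:94739039-94739288 on the plus strand and Erg at chr16:95586594-95586843 on the minus strand.
Tek: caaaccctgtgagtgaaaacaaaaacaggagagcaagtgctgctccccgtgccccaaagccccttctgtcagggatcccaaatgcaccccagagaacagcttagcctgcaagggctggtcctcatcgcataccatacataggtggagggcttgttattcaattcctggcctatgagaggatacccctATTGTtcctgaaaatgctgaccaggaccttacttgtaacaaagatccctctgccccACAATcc
Erg: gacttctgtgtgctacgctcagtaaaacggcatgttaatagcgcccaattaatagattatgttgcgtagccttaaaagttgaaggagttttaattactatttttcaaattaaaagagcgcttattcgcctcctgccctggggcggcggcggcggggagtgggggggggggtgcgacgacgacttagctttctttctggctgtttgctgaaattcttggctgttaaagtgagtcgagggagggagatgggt
The Tek window held ACAAT on either strand at 2 places and the Erg window at 0. Only these exact letters were counted, and other forms of a Sox site were not. A promoter was listed for 110 of the 145 genes called higher and 192 of the 260 called lower without the library labelled Sox17-RACVEC 2. ACAAT on either strand was present in 22.7% and 19.8% of these windows, and in 18.1% of the 10110 windows of tested genes. GGAA, the core letters of Ets sites, was present on either strand in 89.1%, 91.7% and 93.1%.

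Junction and adhesion genes shared the direction of the receptor and surface genes. Of 29 tested, 23 were negative both with and without the library labelled Sox17-RACVEC 2 (medians -0.47 and -0.50), and without it 3 were called lower and 0 higher, where 2.00% and 1.11% of all genes were. Jam2, a junctional adhesion molecule, was at 1315, 90.3 and 2280 in Akt-RACVECs and at 0.95 and 0 in Sox17-RACVEC 1 and 3, and reached 2602, above every Akt-RACVEC, in the library labelled Sox17-RACVEC 2. Without that library its log2 fold change was -8.86 ± 1.45 (limma adjusted p = 0.0034), and with it -5.24 ± 2.10 (adjusted p = 0.488). Nectin2, a cell adhesion receptor, was at 916.5, 557.0 and 1140 against 122.7 and 83.4, and Rasip1, a Ras-interacting protein needed for vessel lumens, at 611.5, 922.8 and 679.5 against 58.4 and 85.1 (limma adjusted p = 0.00538 and 0.0413 without the library labelled Sox17-RACVEC 2, and 0.461 and 0.469 with it). Rasip1 remained below every Akt-RACVEC in the library labelled Sox17-RACVEC 2, at 555.7, whereas Nectin2, at 1070, did not. Cldn5, the tight junction claudin of endothelium, was high in 1 library of 6, at 3543 in Akt-RACVEC 2 and at 4.75 or less elsewhere.

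Venous and lymphatic genes had the lowest median of the lists with 8 or more genes tested, -2.63 without the library labelled Sox17-RACVEC 2 and -1.77 with it, and 9 of 12 were negative in both. Lyve1, a hyaluronan receptor of lymphatic and sinusoidal endothelium, was at 977.8, 810.2 and 440.3 against 11.6 and 18.7, and at 1363 in the library labelled Sox17-RACVEC 2 (log2 fold change without it -5.49 ± 0.64, limma adjusted p = 0.000162; with it -3.34 ± 1.14, adjusted p = 0.442). Ephb4, the venous receptor of ephrin-B2, was at 770.2, 828.7 and 1478 against 143.1 and 157.4, and at 1054 in the library labelled Sox17-RACVEC 2 (-2.70 ± 0.60, limma adjusted p = 0.0206 without it; -1.77 ± 0.68, adjusted p = 0.473 with it). Prox1, which sets lymphatic identity, was at 0 in 5 of the 6 libraries and at 3.76 in Akt-RACVEC 2. Stab1, a scavenger receptor of sinusoids, was at 1143, 1148 and 1203 against 113.9 and 21.4, and at 1839 in the library labelled Sox17-RACVEC 2, and missed the threshold (limma adjusted p = 0.0641 without it and 0.571 with it).

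Arterial genes, for which Sox17 is known, shared no direction. Of 21 Notch pathway and arterial genes tested, 11 were higher and 10 lower without the library labelled Sox17-RACVEC 2 (median 0.45), and 12 and 9 with it (median 0.09). The 2 genes called without that library were both lower, where 2.00% of all genes were called lower. Dll1, a Notch ligand, was at 228.5, 179.2 and 389.8 against 14 and 2.60, and Hes1, a repressor that Notch switches on, at 303.4, 93.4 and 277.3 against 8.56 and 44.5 (limma adjusted p = 0.0173 and 0.0299 without the library labelled Sox17-RACVEC 2, and 0.517 and 0.727 with it). In the library labelled Sox17-RACVEC 2 both exceeded every Akt-RACVEC, at 464.1 and 972.1. Dll4, the Notch ligand of arteries and tip cells, was at 61.4, 211.2 and 2.20 against 16.4, 28.5 and 13.1, and Hey1, a Notch target, at 4.33, 21.5 and 0 against 2.88, 5.61 and 35.9. Neither separated the groups. Cxcl12, an arterial chemokine, was high only in Sox17-RACVEC 1 and 3, at 1128 and 2039 against 97.1, 203.3 and 8.68 in Akt-RACVECs and 26.7 in the library labelled Sox17-RACVEC 2, and did not pass (limma adjusted p = 0.123 without it and 0.653 with it).

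Basement membrane and matrix genes held further called members. Col4a1 and Col4a2, the 2 main chains of vascular type IV collagen, were at 2172, 4247 and 4935 and at 1352, 2589 and 3442 in Akt-RACVECs, and at 877.1 and 1373 and at 585.3 and 918.7 in Sox17-RACVEC 1 and 3. Their log2 fold changes without the library labelled Sox17-RACVEC 2 were -1.70 ± 0.40 and -1.64 ± 0.40 (limma adjusted p = 0.027 and 0.0316; with it 0.528 and 0.560), and that library, at 4355 and 2950, lay inside the Akt-RACVEC range. Of 18 basement membrane genes tested, 9 were lower and 9 higher without it, and 10 and 8 with it. Col4a1 and Col4a2 were the 2 called of the 18, where 2.00% of all genes were called lower. The aggrecanase Adamts5 was at 414.9, 164.7 and 228.8 against 7 and 2.63, and Adamts9, a relative of it, at 46.8, 219.4 and 191.3 against 2.20 and 3.75 (limma adjusted p = 0.000162 and 0.00451 without the library labelled Sox17-RACVEC 2, and 0.469 and 0.406 with it). That library was at 666.7 and 112.9.

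Secreted factors were mixed. Of 27 angiocrine genes tested, 15 were higher and 12 lower without the library labelled Sox17-RACVEC 2, and the median was 0.17; with it, 14 were higher and 13 lower, with a median of 0.04. Igf1 was at 82.0, 39.6 and 248.1 against 1.56 and 0.31 and was called lower (limma adjusted p = 0.0186 without the library labelled Sox17-RACVEC 2 and 0.473 with it). Vegfc, the lymphatic growth factor, was at 49.7, 18.6 and 45.5 in Akt-RACVECs, was listed at 0 in Sox17-RACVEC 1 and 3 and was called lower too (limma adjusted p = 0.0056, and 0.430 with all 6 libraries). With 117.1 and 33.5, the library labelled Sox17-RACVEC 2 again lay with the Akt-RACVECs. In the other direction, Edn1, which encodes the vasoconstrictor endothelin-1, was at 36.9, 43.2 and 195.8 against 1329 and 1436, and at 157.6 in the library labelled Sox17-RACVEC 2 (limma adjusted p = 0.108 without it and 0.506 with it). Ednrb, a receptor for endothelins, was at 281.5, 398.4 and 180.5 against 0 and 1.11 and at 140.5 in the library labelled Sox17-RACVEC 2, all 3 below the Akt-RACVECs (log2 fold change without that library -7.56 ± 1.46, adjusted p = 0.0104; with it -5.36 ± 1.63, adjusted p = 0.403, limma).

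Esm1, the proteoglycan endocan that marks tip cells, had the largest difference of any listed gene without passing. On mm9 chr13:113999867-114008306, it was at 2.59, 1.42 and 0 in Akt-RACVECs, at 2336 and 1043 in Sox17-RACVEC 1 and 3, and at 0 in the library labelled Sox17-RACVEC 2. The log2 fold change without that library was 9.57 ± 2.69 (limma adjusted p = 0.0565), and with it 6.03 ± 2.86 (adjusted p = 0.549). RACVECs had from 1.45 to 463.9, a spread that enters the shared variance of the fit. Among 20 tip cell genes, 10 were higher and 10 lower without the library labelled Sox17-RACVEC 2, and 9 and 11 with it. Without it Trp53i11, Col4a1 and Col4a2 were called, all lower, where 2.00% of all genes were called lower.

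Of the mesenchymal and contractile genes, S100a4 and Tagln were called higher in Sox17-RACVEC 1 and 3. Of 31 mesenchymal genes tested, 25 were positive without the library labelled Sox17-RACVEC 2 (median 2.31) and 23 with it (median 1.12). Without it 17 lay above every Akt-RACVEC, where 18.4% of all genes did, while Prrx1, Cdh2 and Bgn were among the 6 with a negative fold change. In the fit without it 1 was called, where 1.11% of all genes were, S100a4, a calcium-binding protein of motile cells. It was at 1930, 92.6 and 23.99 in Akt-RACVECs, at 17185 and 7745 in Sox17-RACVEC 1 and 3, and at 540.9 in the library labelled Sox17-RACVEC 2, within the range of the Akt-RACVECs. Its log2 fold change was 6.13 ± 1.404 without that library (limma adjusted p = 0.0244) and 4.65 ± 1.402 with it (adjusted p = 0.401). Of 9 contractile genes tested, 7 were positive without it (median 3.27) and 6 with it (median 1.18), and Tagln, the actin-binding transgelin, was called at 167.6, 6.04 and 5.46 against 489.6 and 1690, with 6.65 in the library labelled Sox17-RACVEC 2 (5.53 ± 1.49, limma adjusted p = 0.0489 without it; 3.23 ± 1.68, adjusted p = 0.594 with it). Acta2, smooth muscle actin, was at 110.1, 2.22 and 0.27 against 429.6 and 359.0 and at 0.27 in the library labelled Sox17-RACVEC 2, and did not pass (limma adjusted p = 0.125 without it and 0.716 with it). Col1a1, a chain of fibrillar collagen, was at 19.2, 1.35 and 0.31 against 92.3 and 92.1. It was at 0.67 in the library labelled Sox17-RACVEC 2 and at 1121, 184.0 and 1254 in RACVECs. S100a4 was between 1250 and 6173 in RACVECs, below Sox17-RACVEC 1 and 3. Acta2 was between 132.4 and 1057 in RACVECs, with Sox17-RACVEC 1 and 3 inside that range.

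Genes of the Hoxc cluster, which carry positional identity along the body axis, gave an all-or-none difference. Hoxc10, at mm9 chr15:102797227-102802324, was listed at 0 in all 3 Akt-RACVECs and in the library labelled Sox17-RACVEC 2, and was at 156.9 and 120.0 in Sox17-RACVEC 1 and 3. Hoxc9, Hoxc8 and Hoxc6 likewise were at 57.8 and 54.2, 50.3 and 40.6, and 62.9 and 133.1 in Sox17-RACVEC 1 and 3, and at 0 in the other 4 libraries. Of 6 cluster genes tested, these 4 were called higher without the library labelled Sox17-RACVEC 2, where 1.11% of all genes were. Their limma adjusted p was 0.0247 to 0.0454, and 0.473 to 0.506 with that library. No fold is given against a group at 0. Hoxc4 and Hoxc5 had the same pattern at lower levels, 15.7 and 12.3 and 3.85 and 8.55. In RACVECs, which lack the Sox17 transgene, Hoxc10 ranged from 0 to 188.9 between cultures. The cluster was gathered after its values were seen.

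Outside the lists, the genes called higher with the largest fold changes were of other kinds. Hspb8, a small heat shock protein, was at 21.9, 0 and 0 against 85.6 and 145.8, and Rasa4, a Ras GTPase activator, at 10.98, 4.82 and 3.40 against 338.2 and 143.9. Tnfrsf26, a receptor of the tumour necrosis factor family, was at 14.4, 117.7 and 0 against 792.5 and 615.2. In the library labelled Sox17-RACVEC 2 these were at 0, 1.62 and 2.55. In RACVECs Hspb8 was between 99.1 and 123.3 and Rasa4 between 44.9 and 98.9. Both ranges lay above the Akt-RACVECs, and that of Rasa4 below Sox17-RACVEC 1 and 3. Mustn1, a muscle gene, and the imprinted gene Magel2 were called as well. Hmga1b, at 6.68, 7.91 and 5.31 against 565.4 and 743.7, is a near copy of Hmga1, and its share of reads is uncertain. Among the genes called lower outside the lists, Ptgs1, the cyclooxygenase 1 of prostaglandin synthesis, was at 378.3, 35.1 and 781.8 against 2.09 and 1.18. Gem, a small GTPase of the Ras family, was at 397.2, 260.8 and 658.3 against 1.87 and 2.39. Casp1, the protease of the inflammasome, was at 105.4, 83.8 and 256.4 in Akt-RACVECs and listed at 0 in Sox17-RACVEC 1 and 3. In the library labelled Sox17-RACVEC 2 all 3 were within the Akt-RACVEC range or above it, at 379.7, 888.4 and 385.1.

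Among metabolic genes, 2 of 20 in the amino acid and Atf4 list were called higher without the library labelled Sox17-RACVEC 2, where 1.11% of all genes were. Of the 20, 14 were positive without it (median 1.11) and 15 with it (median 0.60). Slc7a5, a transporter of large neutral amino acids, was at 49.6, 16.6 and 8.12 against 248.8 and 211.0, and Phgdh, the first enzyme of serine synthesis, at 30.8, 27.1 and 1.96 against 104.8 and 132.2 (limma adjusted p = 0.0369 and 0.0489 without the library labelled Sox17-RACVEC 2, which was at 25.5 and 10.7, and 0.459 and 0.528 with it). In RACVECs Slc7a5 was between 124.2 and 374.7 and Phgdh between 60.5 and 139.8, so that the Akt-RACVECs lay below both ranges. Fads2, a fatty acid desaturase, was the 1 gene called of 28 lipid synthesis genes tested. Pfkfb4, a regulator of glycolysis, was the 1 called of 26 glycolysis and hypoxia genes. Both were higher without the library labelled Sox17-RACVEC 2, where 1.11% of all genes were called higher. Of 29 genes of the Akt and Foxo pathway itself, 16 were higher and 13 lower without the library labelled Sox17-RACVEC 2 (median 0.10), and 18 and 11 with it (median 0.10). In the fit without it 1 was called, Bcl2l11, the pro-apoptotic Bim, where 2.00% of all genes were called lower. Bcl2l11 was at 42.7, 113.9 and 36.3 against 21.3 and 9.67, with 116.7 in the library labelled Sox17-RACVEC 2 (-1.89 ± 0.51, limma adjusted p = 0.0483 without it, and -0.91 ± 0.63, adjusted p = 0.695 with it). Smad6, an inhibitor of Bmp signalling, was called higher at 86.6, 26.1 and 25.9 against 185.9 and 388.6, with 23.9 in the library labelled Sox17-RACVEC 2 (2.76 ± 0.58, limma adjusted p = 0.0173 without it; 1.61 ± 0.74, adjusted p = 0.536 with it). In RACVECs Smad6 was between 76.0 and 134.0, below Sox17-RACVEC 1 and 3. Inhbb, which encodes an activin subunit, was called lower at 617.2, 976.9 and 311.1 against 8.70 and 29.2. The library labelled Sox17-RACVEC 2 was at 428.0 (limma adjusted p = 0.0376 without it and 0.469 with it).

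Limma called no member of the cell cycle and DNA replication list, nor did any reach an unadjusted p below 0.05 in either fit. With all 6 libraries 36 of its 39 genes were lower in Sox17-RACVECs, with a median of -0.38. Without the library labelled Sox17-RACVEC 2 it was 23 of 39, with a median of -0.12. Mki67, a marker of dividing cells, was at 78.5, 72.9 and 41.8 against 40.0, 46.1 and 61.9, so that the groups overlapped. Of 18 cell cycle inhibitors and p53 genes tested, 1 was called higher without the library labelled Sox17-RACVEC 2, where 1.11% of all genes were. This was Ccng1, a target of p53, at 683.9, 337.4 and 299.4 against 1162 and 1323, with 442.7 in that library. Its limma adjusted p was 0.0454, and 0.486 with that library. In RACVECs Ccng1 was between 955.6 and 1237.9, above the Akt-RACVECs. The Hedgehog and Wnt lists had 0 called genes of 9 and 26 tested in either fit of limma, with 2 and 6 genes at an unadjusted p below 0.05 without the library labelled Sox17-RACVEC 2. Of all 13019 genes, 1236 were higher and 1353 lower at that p without that library. Immediate early genes, which respond within minutes to growth factors and stress, were negative for 13 of 14 without that library (median -1.44) and for 10 of 14 with it (median -0.51), and 0 were called in limma or reached an unadjusted p below 0.05. Fos, one of them, was at 1573, 18.7 and 1378 in Akt-RACVECs, 133.1 and 4.14 in Sox17-RACVEC 1 and 3 and 2004 in the library labelled Sox17-RACVEC 2, with Akt-RACVEC 2 as low as the Sox17 libraries. Epor, the erythropoietin receptor and the single tested member of the red cell list, was called lower without the library labelled Sox17-RACVEC 2, at 101.6, 7.54 and 53.1 against 0 and 0, with 66.4 in that library (limma adjusted p = 0.0235, and 0.520 with it).

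**Figure D4:**
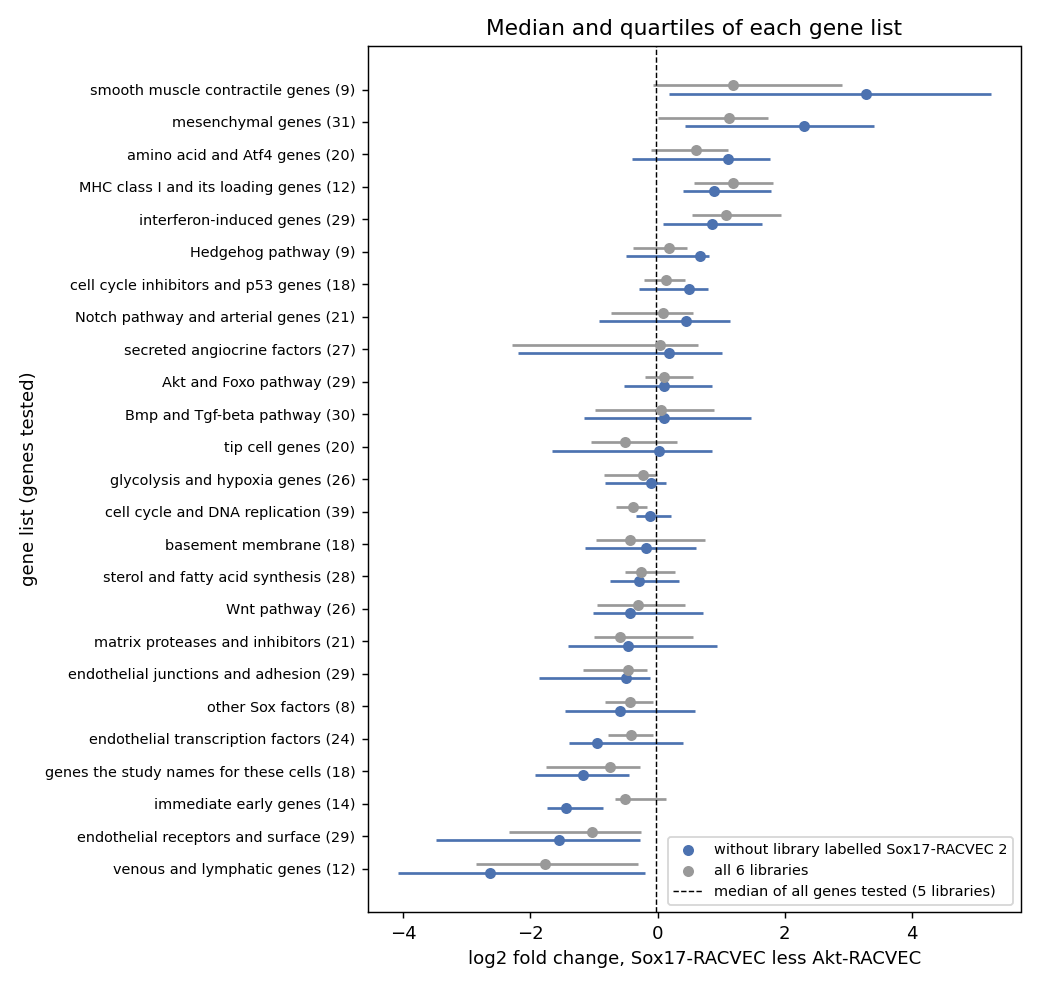
Median (points) and quartiles (lines) of the log2 fold change, Sox17-RACVECs less Akt-RACVECs, in each gene list with 8 or more genes tested; grey is all 6 libraries, blue without the library labelled Sox17-RACVEC 2, and the dashed line the median of all 13019 genes. The blue medians lie further from the line than the grey in the mesenchymal, contractile, receptor and venous lists, and nearer to it in the interferon list.

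Interferon-induced genes leaned higher in Sox17-RACVECs also with the library labelled Sox17-RACVEC 2 included, but none was called. With all 6 libraries, 26 of 29 tested were positive, where 45.0% of all genes were, and the median was 1.08. Without that library it was 22 of 29, where 48.6% of all genes were, and the median was 0.85. The groups did not overlap for 8 of the 29, all higher, against 2.95% of all genes not overlapping in this direction. Without the library labelled Sox17-RACVEC 2 it was again 8 of 29, but against 18.4% of all genes. Limma called 0 of them in either fit, and at an unadjusted p below 0.05 there were 7 higher and 0 lower with all 6 libraries, and 3 and 0 without the library labelled Sox17-RACVEC 2. Of all 13019 genes, 358 were higher and 814 lower at that p and any fold with all 6 libraries, and 1236 and 1353 without that library. All 12 genes of MHC class I and its loading, gathered after values were seen and in part shared with the interferon list, were positive with all 6 libraries (median 1.18), and 5 of them did not overlap. Without the library labelled Sox17-RACVEC 2, 1 of them, Nlrc5, was called, where 1.11% of all genes were called higher.

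Nlrc5, the transactivator of MHC class I genes, had the smallest p of the genes higher in Sox17-RACVECs in the fit of all 6 libraries, though not in the fit without the library labelled Sox17-RACVEC 2. On mm9 chr8:96996663-97051172, it was at 1.15, 0 and 1.76 in Akt-RACVECs and at 38.0, 16.3 and 52.9 in the 3 libraries labelled Sox17-RACVEC. All 3 lay above every Akt-RACVEC (log2 fold change 4.19 ± 0.75, limma adjusted p = 0.0894; 4.66 ± 0.82, adjusted p = 0.00585 without the library labelled Sox17-RACVEC 2). H2-K1, a class I heavy chain, was at 251.2, 232.3 and 603.9 against 1578, 2017 and 2400, and B2m, the light chain beta-2 microglobulin, at 3739, 3322 and 5201 against 13503, 13745 and 13837. Neither overlapped, and their log2 fold changes of 2.58 ± 0.62 and 1.77 ± 0.48 did not pass (limma adjusted p = 0.287 and 0.385, and 0.0524 and 0.0807 without the library labelled Sox17-RACVEC 2). Reads of H2-K1 can be shared with other class I genes of near sequence, which makes its level uncertain. In RACVECs, H2-K1 was between 921.5 and 2255 and B2m between 7786 and 13775, so that it was the Akt-RACVECs that lay below the RACVEC range.

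Some antiviral genes had the same order. Oas2 and Oas3, which sense double-stranded RNA, were at 1.48, 0 and 2.48 against 34.4, 25.9 and 46.6 and at 1.73, 0.53 and 3.13 against 70.2, 78.1 and 19.7. Zbp1, a sensor of Z-form nucleic acid, was at 0.76, 0 and 0.98 against 10.8, 106.3 and 27.0. In RACVECs Oas2 was between 36.3 and 71.15, Oas3 between 16.8 and 30.9 and Zbp1 between 15.1 and 74.4. All of these ranges lay above the Akt-RACVECs. Each of the 3 Sox17 libraries was above every Akt-RACVEC for these genes (limma adjusted p = 0.287 to 0.388, and 0.0631 to 0.0815 without the library labelled Sox17-RACVEC 2). The signal was not uniform over the list: Isg15, a ubiquitin-like protein, was at 133.5, 23.95 and 284.9 against 759.9, 974.9 and 201.9, so that the groups overlapped, with the library labelled Sox17-RACVEC 2 the highest. Without that library 22 of the 29 list genes were positive and 7 negative. Rsad2 was at 89.7, 123.4 and 23.9 against 32.4 and 11.4, and Dhx58 at 134.0, 28.5 and 199.4 against 98.8 and 28.6. In the library labelled Sox17-RACVEC 2 they were at 322.3 and 379.5.

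**Figure D5:**
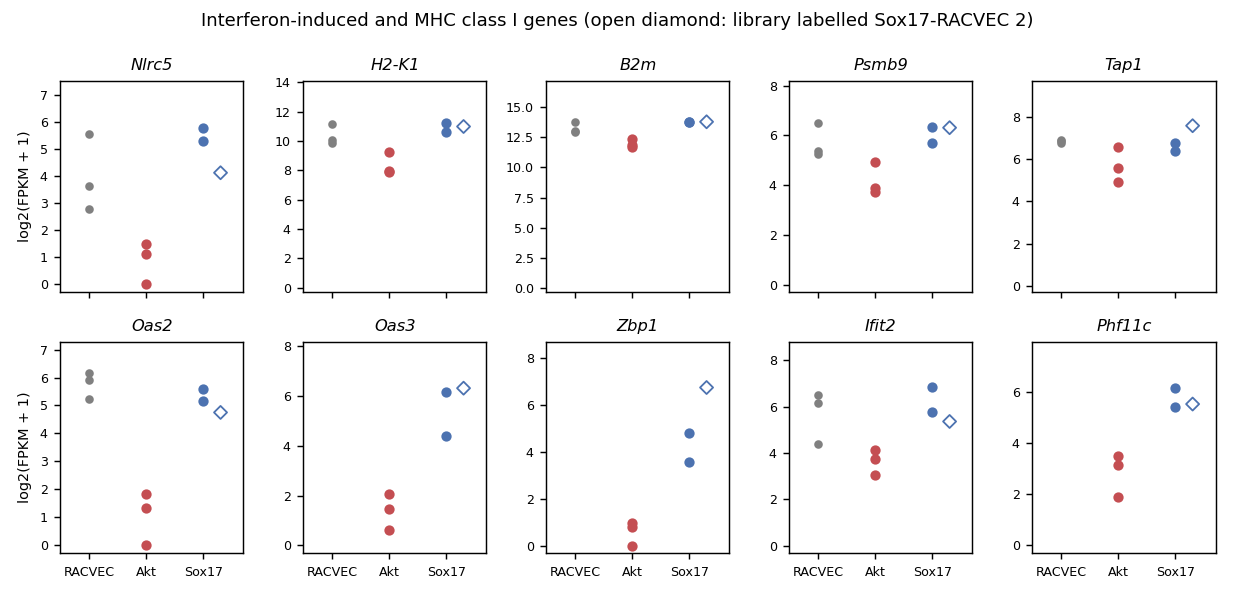
FPKM of 10 interferon-induced and MHC class I genes in each library, as log2(FPKM + 1) on the y axis, with Akt-RACVECs in red, Sox17-RACVECs in blue, RACVECs, where plotted, in grey, and the library labelled Sox17-RACVEC 2 as an open diamond. The 3 Sox17 libraries lie above the 3 Akt-RACVECs for each gene but Tap1.

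Outside the lists, the genes with the smallest p in the comparison of all 6 libraries had no called member either. The groups did not overlap for 384 genes higher (2.95%) and 820 lower (6.30%) in Sox17-RACVECs. Atp10a, a phospholipid flippase, was at 11.2, 6.47 and 7.78 against 74.2, 18.7 and 157.8, and Plcd1, a phospholipase C, at 28.2, 8.90 and 11.1 against 87.7, 28.8 and 43.4. Of the genes lower, Pcdhga10, a clustered protocadherin whose exons are partly shared with its neighbours so that its reads are uncertain, was at 20.01, 51.2 and 37.0 against 0.10, 0.07 and 1.55 (log2 fold change -4.59 ± 0.74, limma adjusted p = 0.0554). Npnt, the integrin ligand nephronectin, was at 172.4, 28.7 and 157.8 against 0, 27.5 and 1.10, so that the library labelled Sox17-RACVEC 2 lay just under the lowest Akt-RACVEC. Selenbp1 and Selenbp2, a close pair of selenium-binding proteins, were at 114.6, 447.5 and 118.2 against 14.1, 57.9 and 6.79 and at 19.4, 77.8 and 23.3 against 3, 10.99 and 1.44, with reads that such a pair can share. Yes1, a Src family kinase, was at 189.7, 281.0 and 182.7 against 74.8, 119.9 and 94.0. Clec1a, a C-type lectin receptor, was at 29.3, 126.0 and 35.6 against 1.65, 12.6 and 0. All of these were called without the library labelled Sox17-RACVEC 2.

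Correlation with cultured endothelial cells was similar in the 2 groups. Akt-LECs are mouse lung endothelial cells cultured with the same myristoylated Akt. Over the 14697 genes, the Pearson correlation with their mean profile was 0.942, 0.920 and 0.909 in Akt-RACVECs (0.924 ± 0.017, SD, n = 3) and 0.917, 0.921 and 0.914 in the libraries labelled Sox17-RACVEC (0.917 ± 0.003, SD, n = 3). The means differed by -0.006 (p = 0.8, exact permutation, two-sided), and by -0.008 without the library labelled Sox17-RACVEC 2 (p = 0.8, exact permutation test). The smallest p either could reach is 0.1, and Akt-RACVEC 3 was below all 3 Sox17 libraries. With the mean of the RACVECs, Sox17-RACVEC 1 and 3 correlated more closely, at 0.947 and 0.941. The library labelled Sox17-RACVEC 2 and the Akt-RACVECs correlated less closely with RACVECs than with Akt-LECs.

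Which genes were called depended on single libraries also among the 5 that remained. When each of the 5 was left out in turn, 3 of the 145 genes called higher and 26 of the 260 called lower were called every time. The 26 included Erg, Tek, Nos3, Lyve1, Gpihbp1, Adamts5, Npnt and the immune GTPase genes Gimap1, Gimap8 and Gimap9; the 3 were Nexn, an actin filament protein, the homeobox gene Tlx1 and Speer4b, a member of a multigene family with uncertain reads. With Sox17-RACVEC 1 left out as well, 8 genes were called higher and 49 lower, and with Sox17-RACVEC 3 left out, 17 and 42; in both, 1 library stands for the Sox17 group and is assumed to vary like the others.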

How the data were processed

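RNA of 24 libraries in 8 groups was sequenced as paired 51 bp reads. The authors mapped them with TopHat to mm9 and deposited FPKM per RefSeq transcript from Cufflinks, with upper-quartile normalization and bias correction; versions and read numbers are not given in the sources used here, so depth is unknown and precision is that between libraries. Scaling and bias correction can alter low values most. Of 27583 transcripts, 26934 were joined to symbols and summed. Groups were compared with limma 3.58.1 (R 4.3.3) on log2(FPKM + 1) in 1 fit over the 8 groups with a variance trend, two-sided, with Benjamini-Hochberg adjustment over 13019 genes. On simulated data with the means and spreads of these libraries, 71 of 100 genes changed by 1.5 (log2) and 91 of 100 changed by 3 were called, with 9 unchanged genes. The changed genes were drawn from those of higher level and smaller spread. The noise was normal and independent, and no library lay apart from its group. These shares cannot be carried over to genes of large spread, nor to the fits with or without the library labelled Sox17-RACVEC 2. Positions are GENCODE M1 on NCBIM37 (mm9); promoters are RefSeq's on GRCm38.p6. Alternatives were pseudocounts, filters, other sets of libraries, scaling, weights, transcripts kept apart, the study's criterion and each library left out. The comparison and the gene lists were chosen with earlier results of these data known. Named genes were the transduced genes, those the study names, the 12 non-overlapping genes per direction with the largest called change or, with fewer called, the smallest p at a mean FPKM of at least 10, and from each list the called members and the 4 of smallest p; other genes of the lists, and the Hoxc and MHC class I genes, were named after their values were seen. Whether equal replicate numbers mark cultures of a shared origin is not given in the sources used here. The correlation of deviations of same-numbered libraries was 0.21, -0.37 and -0.46. It cannot decide this, because the library labelled Sox17-RACVEC 2 shifts the mean from which its group deviates. Values of 1 gene are not reported here.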

Additional observations from a re-analysis of the deposited data

How the results depend on the processing

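With all 6 libraries, the counts of genes called higher and lower were 0 and 0 without a filter, in a fit of the 6 libraries alone, with scaling and with transcripts kept apart. They were 1 and 2 with a pseudocount of 0.1, 0 and 2 with a pseudocount of 10, 0 and 2 at a mean FPKM of at least 10, 0 and 1 with the libraries of amniotic origin, 10 and 78 with array quality weights, and 27 and 69 by the study's criterion (p below 0.05 without adjustment and 2-fold). Leaving out single libraries gave 0 to 145 higher and 0 to 260 lower, the upper ends being those without Sox17-RACVEC 2. Without that library, 145 higher and 260 lower became 11 and 48 in a fit of the 5 libraries alone, 85 and 148 with the libraries of amniotic origin, 231 and 445 with array quality weights, and 320 and 306 by the study's criterion, where higher outnumber lower; leaving out a further library gave 8 to 188 higher and 42 to 296 lower. With the replicate block, 0 and 0 were called in both comparisons. Whether the numbers pair samples by origin is not known, and the block is given only here. These alternatives without that library were added after seeing the data.

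The difference of distances between and within groups ranged from -0.015 to 0.036 when single libraries were left out, and the difference in correlation with Akt-LECs from -0.0138 to 0.0027. Fold changes of transduced or study-named genes that changed sign, none of them called, were with array quality weights Sox17 (0.12), Akt1 (-0.17) and Fli1 (-0.02), and, with a library left out, Sox17 (-1.51 to 1.01), Akt1 (-0.17 to 0.19), Etv2 (-3.83 to 0.59), Fli1 (-0.1 to 0.24), Tal1 (-0.67 to 0.25), Elk3 (-0.33 to 0.2), Hhex (-1.03 to 0.36), Grem1 (-2.68 to 0.29), Cdh5 (-0.52 to 0.02) and Sele (-1.32 to 0.42). Depth limits genes of low FPKM, where a value of 0 cannot be told from a missed one, and 2 libraries in the Sox17 group leave its spread largely to the other groups of the fit.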
